A study of Homo sapiens with 24 samples.

Results

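The late part of a bromouridine chase in uninduced U2OS cells was examined by setting the 4 libraries at 4 and 6 h of chase against the 4 libraries at 1 and 2 h. U2OS is an established human osteosarcoma line, and the cells carried a stable Tet-off switch for the S254D form of the deadenylation factor TOB2. Newly made RNA was labelled with bromouridine, and the labelled part of the cytoplasmic RNA was recovered with an antibody at each time. These 8 libraries are part of 24, which fall into 12 groups of arm and time (induced without doxycycline, uninduced with doxycycline, each at 0, 0.5, 1, 2, 4 and 6 h) with 2 replicates each. In the uninduced arm the drug was present and the transgene uninduced at every time, so the late change compares times of chase and not drug or transgene. The labels do not say that replicates came from separate cultures, so the p-values measure only the spread between these libraries, which may be technical. Values are TPM, summed over the transcripts of each symbol. TPM are shares of a fixed total, so a gene that is higher at 4 and 6 h took a larger share of the labelled RNA that was left. A loss common to all RNAs leaves no trace, and labelled RNA that was still arriving in the cytoplasm cannot be told apart from slower loss. The table held 25341 genes, of which the 13416 that averaged 1 TPM or more across all 24 libraries were tested.

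The lifetime of a messenger RNA is set largely by how fast its poly(A) tail is shortened, after which the cap is removed and the body is degraded from either end. RNAs of immediate early genes and of many signalling regulators carry AU-rich or other destabilizing elements and are short-lived. RNAs of ribosomal proteins, metabolic enzymes and structural proteins are known as long-lived, and those of replication-dependent histones, which lack a poly(A) tail, are degraded by a pathway of their own. TOB and BTG proteins bring the CCR4-NOT deadenylase to RNAs.

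Replicates of the uninduced groups from 1 to 6 h correlated at r = 0.98 to 0.986 across genes, and no library of the 8 stood apart. Between 12594 and 13444 genes reached 1 TPM in each of them, and the number of reads behind the values is unknown. The share of TPM in protein-coding transcripts was 84.1 and 84.5% at 4 h and 87.6 and 86.9% at 6 h, against 76.6 and 74.9% at 1 h and 78.9 and 79.0% at 2 h. Against the labelled cell type, the defining markers gave a mixed picture. The mesenchymal markers summed to 1078 to 1319 TPM at 4 and 6 h, against 790 to 962 TPM at 1 and 2 h, with VIM and CD44 among the 5 of 8 that passed the 1 TPM filter (kept genes). The osteoblast markers were near absent, with 2 of 8 kept (RUNX2 and BGLAP) and a sum of 3.43 to 7.10 TPM, against 4.09 to 6.92 TPM. Leukocyte markers (2 of 8 kept) summed to 14.3 to 22.4 TPM, against 24.3 to 41.0 TPM, epithelial markers (2 of 8 kept) to 4.55 to 8.69 TPM, against 10.2 to 11.9 TPM, and endothelial markers (2 of 5 kept) to 3.02 to 5.21 TPM, against 2.56 to 4.35 TPM. The part of these low levels in the results was not tested. In bulk RNA, fewer cells of a type and less RNA per cell cannot be told apart. Here the sums are of labelled RNA at successive times of chase, so a late difference does not measure a number of cells.

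TOB2 itself fell late in the chase of uninduced cells, where its RNA comes from the cells' own gene as far as the switch is closed. It was at 168 and 171 TPM at 4 h and 105 and 92.3 TPM at 6 h, against 246 and 203 TPM at 1 h and 261 and 235 TPM at 2 h. The 6 h libraries were the lowest, and every late library lay below every early one (log2 change -0.86, SE 0.115, limma adjusted p = 1.05e-05). In induced cells, TOB2 was at 529 and 677 TPM at 4 h and 711 and 576 TPM at 6 h, against 725 and 584 TPM at 1 h and 717 and 607 TPM at 2 h. Those groups overlapped, and the late change in induced cells was -0.08 on the log2 scale. The summed TPM do not separate the transgene from the cells' own TOB2.

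Late in the chase, immediate early genes (47 of 51), histone genes (57 of 61) and ZNF zinc finger genes (223 of 392) fell, while nucleoporins (43 of 51), mitotic genes (37 of 42) and proteasome subunits (32 of 36) rose. At 4 and 6 h, against 1 and 2 h, 4874 genes (36.3% of those tested) took a larger share of the labelled RNA and 2460 (18.3%) a smaller one, at an adjusted p under 0.05 in limma on log2(TPM + 1). In 4439 genes (33.1%) all 4 late libraries lay above all 4 early ones, and in 1958 (14.6%) all lay below. The median change over all genes was 0.15 on the log2 scale, with the middle 50% of genes between -0.24 and 0.42. The changes were lopsided in size, with the long tail among the genes that fell. Among the called genes, 257 were higher and 554 lower by at least 2-fold, 2 were higher and 100 lower by at least 4-fold, and 1 was higher and 15 lower by at least 8-fold. These fold changes are on the log2(TPM + 1) scale and understate the change of low genes. Genes with a protein-coding transcript were higher in 41.1% and lower in 16% of 11723, with a median of 0.20. Genes without one were higher in 3.19% and lower in 34.3% of 1693, with a median of -0.35. The share of genes called higher went up with level, being 5.54% of 3031 genes with a mean of 1 to 5 TPM, 39.5% of 7166 with 5 to 50 TPM and 58.2% of 3219 with 50 TPM or more. In the same order, the shares called lower were 21.7, 16.7 and 18.9%, and the median changes were -0.14, 0.19 and 0.30. The change itself thus differed with level. The median standard errors in these classes were 0.182, 0.121 and 0.0922, so a small change was also harder to call at low levels.

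The balance of higher against lower genes depended on scaling. Of all calls, 66.5% were higher with TPM as deposited, against 52.2% after median-of-ratios scaling (3738 higher, 3417 lower), which sets each library by the median ratio of its genes and moved the median of all genes by -0.12. Leaving out RMRP, MIR6723 and RPPH1 from every library moved it by -0.12 as well and gave 53.6% (3775 higher, 3263 lower). With protein-coding transcripts only, 57.2% of calls were higher. The changes of gene groups are therefore read against the all-gene median of 0.15. By class, the median was 0.20 for genes with a protein-coding transcript and 0.30 for genes of 50 TPM or more.

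**Figure D1:**
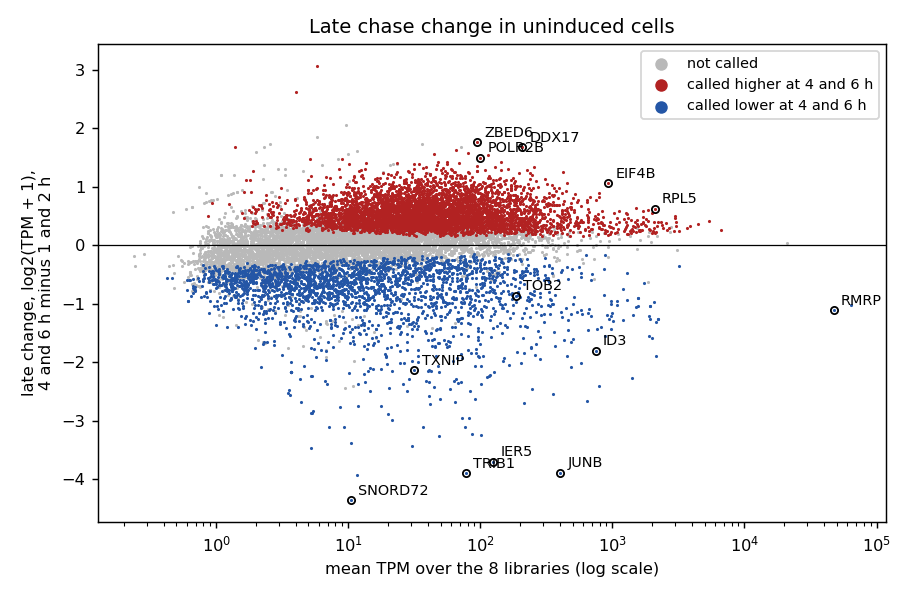
Late change of every gene in uninduced cells (4 and 6 h minus 1 and 2 h, log2, vertical axis) against its mean TPM over these 8 libraries (log axis), for 13390 genes above 0 there. Coloured points are genes called in limma, and labelled genes are described in the text; the lower tail reaches further from 0 than the upper one.

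Genes were named by size among the called ones that averaged 5 TPM or more in the 8 libraries and moved the same way in both replicates. The 15 protein-coding genes with the largest falls, of -2.75 to -3.89 on the log2 scale, were TRIB1, JUNB, IER5, PPP1R3C, SERTAD1, KTI12, IER5L, TBCC, EGR1, JUN, CITED2, CHAC1, DUSP6, MYLIP and LENG9. TRIB1, a pseudokinase that brings targets to a ubiquitin ligase, was at 14.6 and 18.2 TPM at 4 h and 4.81 and 3.89 TPM at 6 h, against 172 and 165 TPM at 1 h and 104 and 136 TPM at 2 h. Its late libraries were far below the early ones, and the 6 h libraries far below those at 4 h (log2 change -3.89, SE 0.135, limma adjusted p = 5.09e-12). On the log2(TPM + 1) scale this is a 14.9-fold fall. JUNB, a subunit of the AP-1 transcription factor, was at 94.2 and 79.7 TPM at 4 h and 24.1 and 24.3 TPM at 6 h, against 1051 and 986 TPM at 1 h and 490.4 and 461 TPM at 2 h. Each step of the chase lay below the one before, with replicates close together (log2 change -3.89, SE 0.0797, limma adjusted p = 3.94e-15). PPP1R3C, which directs protein phosphatase 1 to glycogen, was at 6.61 and 8.95 TPM at 4 h and 1.80 and 2.16 TPM at 6 h, against 64.8 and 75.4 TPM at 1 h and 37.1 and 45.2 TPM at 2 h. Its levels parted from the early ones without overlap (log2 change -3.42, SE 0.182, limma adjusted p = 3.5e-10). KTI12, whose yeast counterpart works with the Elongator complex, was at 34.7 and 39.9 TPM at 4 h and 8.37 and 7.45 TPM at 6 h, against 200.3 and 236 TPM at 1 h and 126 and 152 TPM at 2 h (log2 change -3.24, SE 0.138, limma adjusted p = 2.95e-11).

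TBCC, a cofactor of tubulin folding, was at 21.6 and 27.8 TPM at 4 h and 9.30 and 7.22 TPM at 6 h, against 162 and 187 TPM at 1 h and 87.1 and 113 TPM at 2 h. The groups did not overlap (log2 change -3.11, SE 0.135, limma adjusted p = 3.45e-11). CITED2, which binds the coactivators CBP and p300 and limits the hypoxia response, was at 23.5 and 31.5 TPM at 4 h and 7.39 and 9.60 TPM at 6 h, against 133 and 145 TPM at 1 h and 104 and 124 TPM at 2 h. It too was lowest at 6 h (log2 change -2.96, SE 0.140, limma adjusted p = 9e-11). CHAC1, an enzyme that breaks down glutathione and is induced by amino acid shortage, was at 31.3 and 29.1 TPM at 4 h and 9.88 and 9.50 TPM at 6 h, against 202 and 158 TPM at 1 h and 118 and 102 TPM at 2 h. The late libraries lay below the early ones throughout (log2 change -2.95, SE 0.105, limma adjusted p = 5.73e-12). DUSP6, the cytoplasmic phosphatase of ERK, was at 8.75 and 5.83 TPM at 4 h and 1.65 and 2.03 TPM at 6 h, against 49.2 and 37.4 TPM at 1 h and 30.8 and 24.7 TPM at 2 h. MYLIP, a ubiquitin ligase, was at 6.23 and 5.69 TPM at 4 h and 2.78 and 1.95 TPM at 6 h, against 34.9 and 32.7 TPM at 1 h and 26.9 and 31.4 TPM at 2 h. Both were without overlap, with changes of -2.88 (SE 0.154, limma adjusted p = 3.5e-10) and -2.75 (SE 0.111, limma adjusted p = 2.13e-11). The remaining changes were -3.70 for IER5, -3.26 for SERTAD1, -3.22 for IER5L, -3.10 for EGR1, -2.99 for JUN and -2.75 for LENG9, all called in limma. None of these 15 genes lost its call or its sign in any alternative run.

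**Figure D2:**
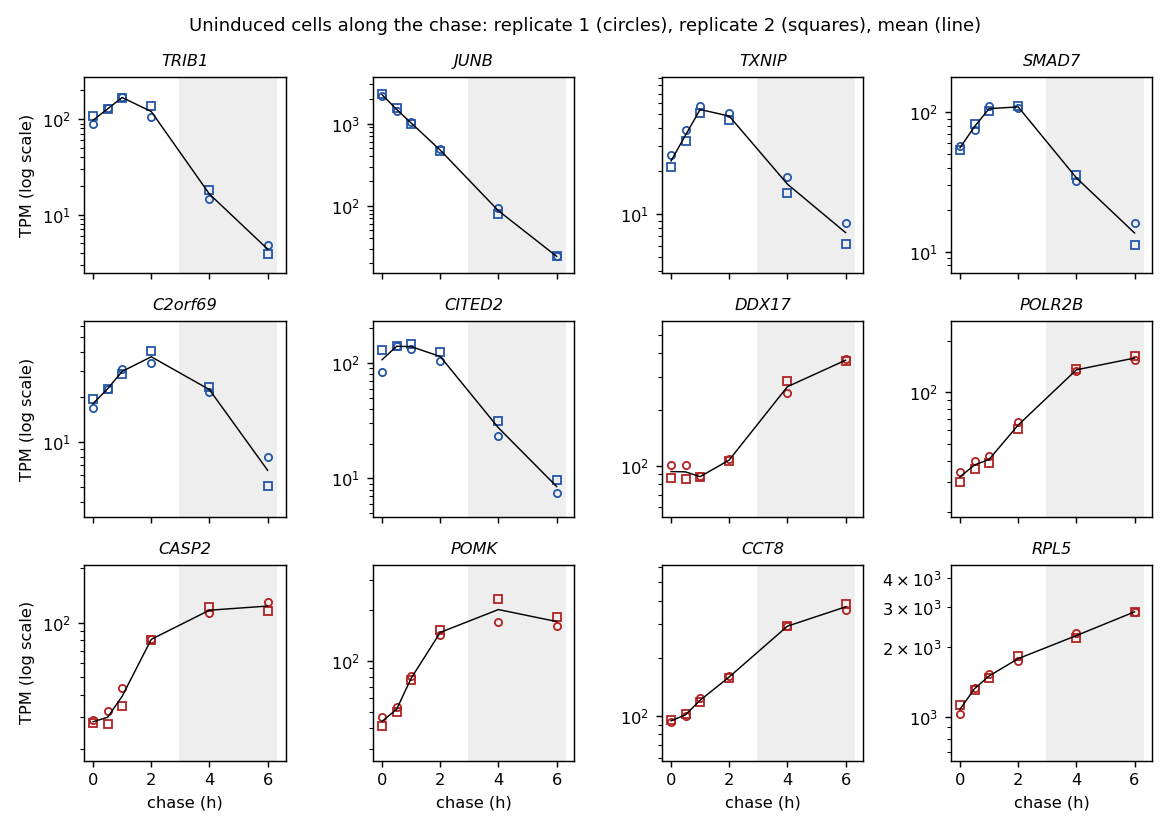
TPM of 12 genes in uninduced cells over the chase (hours, horizontal axis; TPM on a log axis, vertical), with circles for replicate 1, squares for replicate 2, a line through the means and grey over the late window. TRIB1, TXNIP and SMAD7 were higher at 1 h than at 0 h before they fell, while POLR2B, CASP2 and CCT8 climbed.

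Immediate early genes, those switched on within minutes of a stimulus, fell nearly throughout. Of 51 kept genes, 47 (92.2%) were lower and 2 higher, with a median of -1.60 and the middle 50% between -2.34 and -1.08. Among the transcription factors, IER2 changed by -2.46, FOS by -1.91, MYC by -1.90 and ATF3 by -1.85. Among the phosphatases of MAP kinases, DUSP1 changed by -2.41 and DUSP2 by -2.01. The Sprouty proteins, inhibitors of receptor tyrosine kinase signalling, did likewise, with -2.22 for SPRY2 and -2.12 for SPRY4. The genes that rose were SRF (0.53), the serum response factor that drives many of the others, and PER1 (0.66), a clock repressor. NR4A3 at -0.25 and JUND at -0.10 were not called (limma adjusted p = 0.221 and 0.633). The list's median change from 0 h was -0.15 at 0.5 h, -0.26 at 1 h, -0.55 at 2 h, -1.56 at 4 h and -2.35 at 6 h.

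Replication-dependent histone genes fell as a block. Of 61 kept genes, 57 (93.4%) were lower and none was higher, with a median of -1.14, and the other 4 (HIST1H4L, HIST1H2BB, HIST1H2BE and HIST1H4D) were not called. Together they held 25910 to 37973 TPM in the late libraries, against 58502 to 76267 TPM in the early ones. HIST1H3A, which codes for histone H3, was at 138 and 146 TPM at 4 h and 73.8 and 72.8 TPM at 6 h, against 344 and 376 TPM at 1 h and 248 and 285 TPM at 2 h. All 4 late libraries lay below all 4 early ones (log2 change -1.59, SE 0.0826, limma adjusted p = 2.78e-10). The list's median change from 0 h was -0.19 at 0.5 h, -0.48 at 1 h, -0.84 at 2 h, -1.44 at 4 h and -1.97 at 6 h, so the fall was under way before the late window. Histone genes are near copies of each other, and reads can be split between them.

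Zinc finger genes of the ZNF series, mostly putative repressors of transcription, fell in 223 of 392 (56.9%) and rose in 27 (6.89%), with a median of -0.39. ZNF574 was at 33.8 and 40.1 TPM at 4 h and 16.8 and 14.4 TPM at 6 h, against 161 and 171 TPM at 1 h and 106 and 127 TPM at 2 h. ZNF281, a factor linked to pluripotency, was at 128 and 116 TPM at 4 h and 41.9 and 43.6 TPM at 6 h, against 221 and 209.8 TPM at 1 h and 193 and 204 TPM at 2 h. Neither overlapped between late and early libraries, with changes of -2.48 (SE 0.111, limma adjusted p = 4.55e-11) and -1.50 (SE 0.0729, limma adjusted p = 1.21e-10). The list's median change from 0 h was -0.045 at 0.5 h, -0.053 at 1 h, -0.082 at 2 h, -0.29 at 4 h and -0.71 at 6 h, so most of it came after 2 h. Of the 392 ZNF genes, 144 were lower at 6 h than at 4 h and none was higher, against 7.67% lower and 0.552% higher of all genes.

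Other transcription factor families were split. Of all genes, 18.3% fell and 36.3% rose. Of 20 KLF and SP factors, 12 fell and 4 rose (median -0.53). KLF6, a zinc finger factor that is also an immediate early gene, was at 22.2 and 18.6 TPM at 4 h and 9.25 and 6.18 TPM at 6 h, against 76.6 and 61.1 TPM at 1 h and 71.0 and 61.4 TPM at 2 h (log2 change -2.34, SE 0.143, limma adjusted p = 1.72e-09). KLF5 changed by -1.27, KLF10 by -1.15 and KLF11 by -0.92, the last of which was not called per transcript. Of 54 homeobox genes, 26 fell and 4 rose (median -0.26), among them IRX5 at -1.41, HOXC11 at -1.33 and HOXA11 at -1.19. Of 12 clock repressors and output factors, 4 (33.3%) fell and 3 (25%) rose (median -0.20), with BHLHE40 at -1.90 and NFIL3 at -2.06 on the falling side.

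Of 25 kept genes of BMP, TGF-beta and Notch signalling and its feedback, 13 (52%) fell and 6 (24%) rose, with a median of -0.56. The shares of all genes were 18.3% and 36.3%. TGIF1, a corepressor of SMAD proteins, was at 88.8 and 87.6 TPM at 4 h and 36.8 and 31.2 TPM at 6 h, against 447 and 437 TPM at 1 h and 284 and 307 TPM at 2 h (log2 change -2.70, SE 0.0801, limma adjusted p = 5.57e-13). ID1, an inhibitor of basic helix-loop-helix factors and a direct BMP target, was at 221 and 241 TPM at 4 h and 114 and 108 TPM at 6 h, against 1383 and 1679 TPM at 1 h and 645 and 726 TPM at 2 h (log2 change -2.67, SE 0.133, limma adjusted p = 1.65e-10). HES1, the Notch-induced repressor, changed by -2.42, the inhibitory SMAD7 by -2.28 and the ligand BMP2 by -0.66. The genes that rose included the receptor NOTCH2 (0.97), the Notch ligands JAG2 (1.21) and JAG1, the corepressor SKI and the ligands TGFB1 and TGFB3. ID1, ID2, ID3 and HES1 are also in the immediate early list, and TGIF1 is also the lowest of the homeobox genes. JAG2 was not called per transcript.

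Stress pathways held genes of both directions, where 18.3% of all genes fell and 36.3% rose. Of 27 p53 targets, 14 fell and 5 rose (median -0.40). The lowest of them, BTG2 at -2.34, is also among the deadenylation genes below. BBC3, the proapoptotic PUMA, changed by -1.85, AEN, an exonuclease, by -1.31, PPM1D, the phosphatase that switches p53 signalling off, by -1.26, and CDKN1A, the p21 inhibitor of cyclin-dependent kinases, by -0.88. MDM2, the ubiquitin ligase for p53, rose by 0.64, and the death receptors FAS and TNFRSF10B by 0.24 and 0.65. Of 24 NF-kB and inflammatory genes, 9 (37.5%) fell and 6 (25%) rose (median -0.25). NFKBIA, the inhibitor that holds NF-kB in the cytoplasm, was at 149.5 and 185 TPM at 4 h and 116 and 122 TPM at 6 h, against 479 and 503 TPM at 1 h and 328 and 386 TPM at 2 h. The late libraries were the lower ones without overlap (log2 change -1.56, SE 0.0962, limma adjusted p = 1.78e-09). The subunits themselves rose, with 0.66 for RELA, 0.67 for NFKB1 and 0.55 for NFKB2. Of 26 genes of the endoplasmic reticulum, 13 rose and 7 fell (median 0.27). XBP1, a transcription factor of the unfolded protein response, changed by -1.08 and the cochaperone DNAJB9 by -1.70, while the folding enzyme PDIA6 changed by 0.79. Of 25 heat shock and CCT chaperonin genes, 17 rose and 6 fell (median 0.44). DNAJB1 at -1.47, HSPA1B at -1.21 and HSPA1A at -1.02 were among those that fell, and HSPA1A and HSPA1B are near copies. CCT8, a subunit of the ring that folds actin and tubulin, rose and was at 293 and 295 TPM at 4 h and 357 and 385 TPM at 6 h, against 123.3 and 118 TPM at 1 h and 162 and 157 TPM at 2 h (log2 change 1.24, SE 0.108, limma adjusted p = 8.6e-08).

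At the other end, the 15 protein-coding genes with the largest rises by the same rule had changes of 1.41 to 3.07. They included TMEM189-UBE2V1, ZBED6, DDX17, SLC4A2, CCAR2, SRRT, POLR2B, EGFL8, GPR75-ASB3, U2AF2, UQCRC2, BMI1 and TM9SF3. DDX17, an RNA helicase of transcription and splicing, was at 247 and 284 TPM at 4 h and 374 and 363 TPM at 6 h, against 88.3 and 86.6 TPM at 1 h and 108 and 107 TPM at 2 h. Its 6 h libraries were the highest, and the groups did not overlap (log2 change 1.68, SE 0.107, limma adjusted p = 2.64e-09), a 3.20-fold rise on the log2(TPM + 1) scale. SRRT, a partner of the nuclear cap-binding complex, changed by 1.55, and POLR2B, a core subunit of RNA polymerase II, by 1.50. U2AF2, which recognizes the polypyrimidine tract before an exon, was at 160.2 and 197 TPM at 4 h and 238 and 239 TPM at 6 h, against 66.1 and 60.96 TPM at 1 h and 94.2 and 86.4 TPM at 2 h (log2 change 1.43, SE 0.0958, limma adjusted p = 4.34e-09). BMI1, a subunit of Polycomb repressive complex 1, was at 59.5 and 56.5 TPM at 4 h and 90.1 and 76.2 TPM at 6 h, against 28.8 and 20.8 TPM at 1 h and 25.8 and 26.1 TPM at 2 h (log2 change 1.42, SE 0.163, limma adjusted p = 1.87e-06).

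SLC4A2, a chloride and bicarbonate exchanger, was at 75.3 and 93.4 TPM at 4 h and 114 and 118 TPM at 6 h, against 31.2 and 24.8 TPM at 1 h and 35.6 and 34.3 TPM at 2 h. UQCRC2, a core subunit of respiratory complex III, was at 64.7 and 76.6 TPM at 4 h and 92.0 and 96.5 TPM at 6 h, against 28.4 and 23.2 TPM at 1 h and 35.8 and 32.5 TPM at 2 h. Both had all 4 late libraries above all 4 early ones, with changes of 1.63 (SE 0.130, limma adjusted p = 3.47e-08) and 1.43 (SE 0.118, limma adjusted p = 5.1e-08). TM9SF3, a membrane protein, changed by 1.41. Some of these risers share reads with neighbours or rest on one kind of transcript. TMEM189-UBE2V1 and GPR75-ASB3 are readthrough transcripts, ZBED6 lies within another gene, and EGFL8 adjoins one with which it forms a readthrough, so their values are uncertain. TMEM189-UBE2V1 was at 3.31 and 8.91 TPM at 4 h and 12.8 and 19.8 TPM at 6 h, against 0 and 0 TPM at 1 h and 1.46 and 0 TPM at 2 h. CCAR2, an inhibitor of the deacetylase SIRT1, changed by 1.57, but by 0.33 with protein-coding transcripts only and by 0.47 per transcript (limma adjusted p = 0.116 and 0.0867). EGFL8 changed by 1.48, but by 1.07 with protein-coding transcripts only and by 0.43 per transcript (limma adjusted p = 0.218 and 0.707). GPR75-ASB3 changed by 1.48, and was not called with a pseudocount of 0.1 TPM (limma adjusted p = 0.0629).

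**Figure D3:**
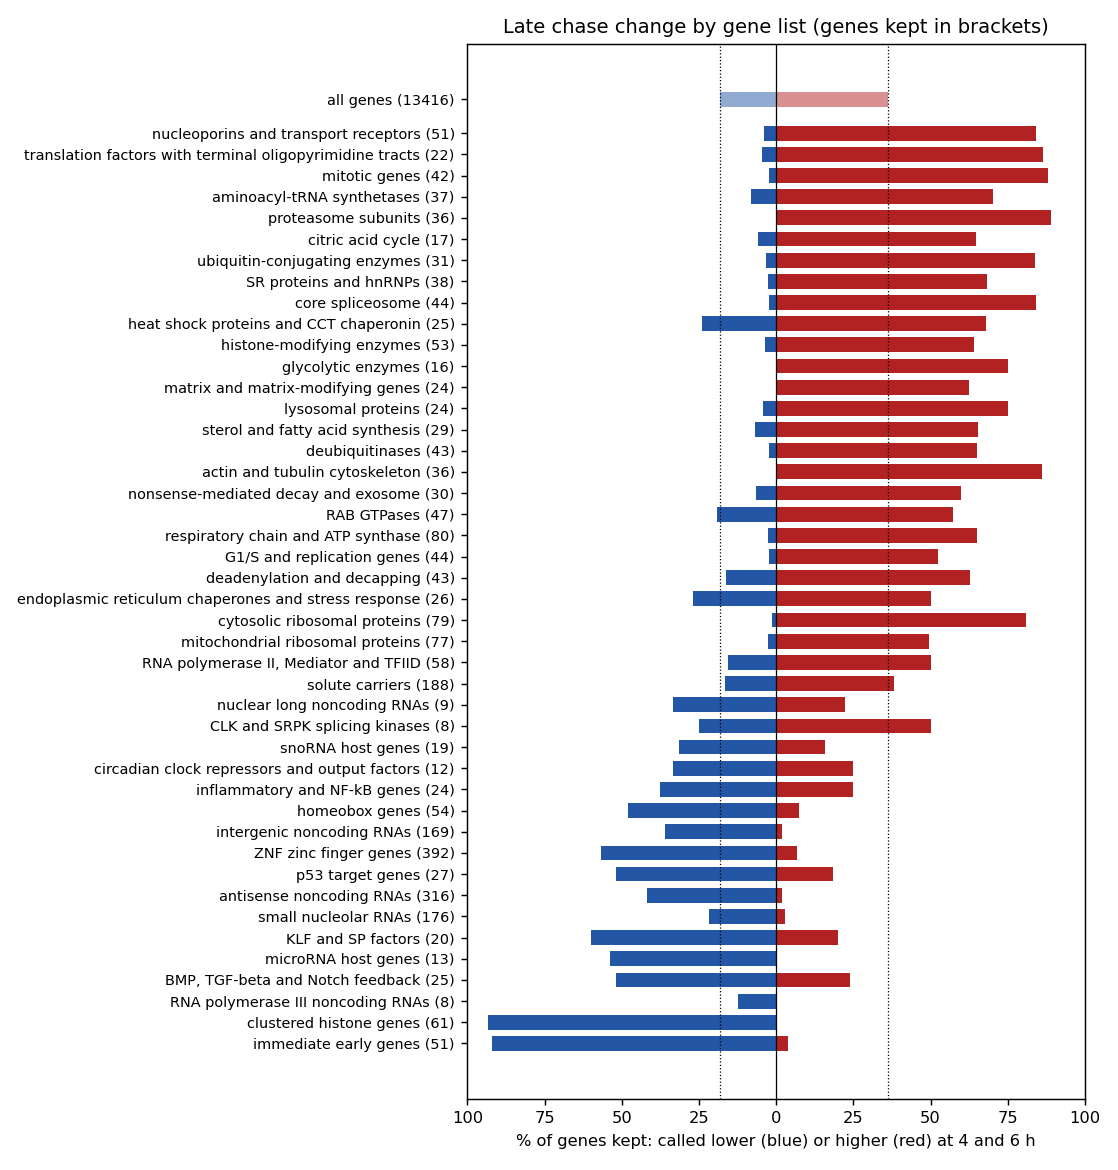
Share of the kept genes of each list that were called lower (blue, left) or higher (red, right) at 4 and 6 h than at 1 and 2 h in uninduced cells, in percent. Dotted lines mark the shares over all genes, 18.3% lower and 36.3% higher.

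Nucleoporins and transport receptors, which form the nuclear pore and carry cargo through it, had a median of 0.69, against 0.15 over all genes. Of 51 kept genes, 43 (84.3%) rose and 2 fell, and their sum was 5230 to 5473 TPM late, against 2976 to 3855 TPM early. XPO1, the main export receptor for proteins, was at 224 and 228 TPM at 4 h and 244 and 227 TPM at 6 h, against 101 and 104 TPM at 1 h and 119.9 and 127 TPM at 2 h. All late libraries lay above the early ones (log2 change 1.03, SE 0.0552, limma adjusted p = 3.59e-10). NDC1, a membrane anchor of the pore, was at 93.0 and 97.9 TPM at 4 h and 105 and 105 TPM at 6 h, against 39.1 and 42.7 TPM at 1 h and 52.2 and 58.1 TPM at 2 h (log2 change 1.06, SE 0.0743, limma adjusted p = 7.54e-09). The list's median change from 0 h was 0.083 at 0.5 h, 0.12 at 1 h, 0.35 at 2 h, 0.87 at 4 h and 0.95 at 6 h, so the larger part of it lay between 2 and 4 h. The 2 that fell were NUP210L (-0.60) and NUP62 (-0.21).

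RNAs for splicing and for the cell cycle rose in the same window, more often than the 36.3% of all genes. Of 44 core spliceosome genes, 37 rose and SNRNP35 fell (median 0.46), and of 38 SR proteins and hnRNPs, 26 rose and HNRNPA1 fell (median 0.48). SF3B1, which binds the branch point region, changed by 1.02, HNRNPR by 1.21 and SRSF1 by 1.04. Of 42 mitotic genes, 37 (88.1%) rose and SPC25 fell (median 0.51). RACGAP1, which organizes the central spindle, was at 71.8 and 87.3 TPM at 4 h and 90.8 and 94.5 TPM at 6 h, against 30.6 and 33.1 TPM at 1 h and 35.6 and 36.8 TPM at 2 h. Its late libraries were above the early ones without overlap (log2 change 1.31, SE 0.0836, limma adjusted p = 2.54e-09). TPX2, an activator of Aurora A, changed by 1.14, PRC1, which bundles microtubules, by 1.10 and CENPF by 1.03. Of 44 genes of the G1/S transition and of DNA replication, 23 rose and CDT1 fell (median 0.30), with 0.97 for RRM1, the large subunit of ribonucleotide reductase. The 8 CLK and SRPK splicing kinases had 4 that rose and 2 that fell, with a median of 0.06 that was -0.15 under quantile normalization and -0.08 under median-of-ratios scaling.

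Protein turnover genes rose together. Of 36 proteasome subunits, 32 (88.9%) rose and none fell, with a median of 0.50 and a sum of 5262 to 6375 TPM, against 3714 to 4327 TPM. PSMD11, a lid subunit, was at 102 and 115 TPM at 4 h and 133 and 133 TPM at 6 h, against 48.7 and 43.6 TPM at 1 h and 61.9 and 59.5 TPM at 2 h. Every late library was above every early one (log2 change 1.17, SE 0.0832, limma adjusted p = 9.46e-09). PSMB1, a subunit of the core, was at 207 and 227 TPM at 4 h and 239.7 and 280.4 TPM at 6 h, against 114 and 121 TPM at 1 h and 144 and 143 TPM at 2 h (log2 change 0.86, SE 0.0829, limma adjusted p = 2.7e-07). The list's median change from 0 h was 0.10 at 0.5 h, 0.20 at 1 h, 0.42 at 2 h, 0.71 at 4 h and 0.93 at 6 h. Of 31 ubiquitin-conjugating enzymes, 26 rose and UBE2D4 fell (median 0.49), and of 43 deubiquitinases, 28 rose and USP43 fell (median 0.39). Of 24 lysosomal genes, 18 rose and GUSB fell (median 0.40), among them LAMP1 at 0.95 and PSAP, the saposin precursor, at 0.91.

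Cytosolic ribosomal proteins were higher late by small amounts with TPM as deposited, and fewer were after other scalings. Of 79 genes, 64 (81%) were higher and 1 lower, with a median of 0.27, and they summed to 117000 to 145640 TPM late, against 103670 to 107050 TPM early. Of all genes with a mean of 50 TPM or more, 58.2% were higher, with a median of 0.30. RPL5, which binds the 5S ribosomal RNA, was at 2297 and 2196 TPM at 4 h and 2851 and 2847 TPM at 6 h, against 1534 and 1467 TPM at 1 h and 1737 and 1831 TPM at 2 h (log2 change 0.63, SE 0.0668, limma adjusted p = 8.61e-07). RPL4 was at 3060.5 and 3211 TPM at 4 h and 3746 and 3997 TPM at 6 h, against 2248 and 2239 TPM at 1 h and 2586 and 2767 TPM at 2 h (log2 change 0.51, SE 0.0713, limma adjusted p = 1.74e-05). RPL10A was the exception, at 433 and 466 TPM at 4 h and 462 and 483 TPM at 6 h, against 869.6 and 803 TPM at 1 h and 550.5 and 535 TPM at 2 h. Its late libraries all lay below the early ones (log2 change -0.55, SE 0.0677, limma adjusted p = 4.4e-06). The count rests on scaling. After median-of-ratios scaling 16 ribosomal protein genes (20.3%) were higher, below the 27.9% of all genes, and 2 were lower. Without RMRP, MIR6723 and RPPH1, 32 (40.5%) were higher, against 27.5% of all genes, and with protein-coding transcripts only 27 (34.2%), against 29.1%. The list of translation factors of the same regulatory class stood further above the all-gene median, with 19 of 22 genes (86.4%) higher and a median of 0.52. This list also holds HNRNPA1, which was lower and is the same gene that fell among SR proteins and hnRNPs. EIF4B, a cofactor of the helicase that unwinds leaders, was at 1133 and 1199.6 TPM at 4 h and 1311 and 1327 TPM at 6 h, against 482 and 413 TPM at 1 h and 798 and 779.7 TPM at 2 h (log2 change 1.06, SE 0.0912, limma adjusted p = 7.85e-08). EIF2S3, the subunit of eIF2 that binds GTP, was at 423 and 390.3 TPM at 4 h and 494 and 478 TPM at 6 h, against 224 and 204 TPM at 1 h and 275 and 279 TPM at 2 h (log2 change 0.87, SE 0.0873, limma adjusted p = 4.77e-07).

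These RNAs are known for a terminal oligopyrimidine (TOP) tract, a cytosine at the cap followed by pyrimidines, through which mTOR sets their translation. The 30 bases from 10 before the start to 20 from it, from RefSeq on GRCh38.p14, are shown for 4 of the genes above, to set RPL10A beside genes that rose, with the first run of at least 5 pyrimidines that begins with C, searched from the annotated start on, in capitals. In EIF2S3 the pyrimidines also reach upstream of that start, in small letters.
EIF4B, chr12:53006446-53006475, plus strand: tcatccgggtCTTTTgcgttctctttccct
EIF2S3, chrX:24054946-24054975, plus strand: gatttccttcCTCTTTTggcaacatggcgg
RPL4, chr15:66504836-66504865, minus strand: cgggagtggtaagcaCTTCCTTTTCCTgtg
RPL10A, chr6:35468391-35468420, plus strand: aagacatgctagtCTCTTTTCCggttagcg
The tract opened at base 1 of the annotated start in EIF4B and EIF2S3, at base 6 in RPL4 and at base 4 in RPL10A, with lengths of 5, 7, 12 and 9 bases. RPL10A, which fell, and RPL4, which rose, both had it downstream of the annotated start. A tract exactly at an annotated start (C and at least 4 more C or T on the gene's strand) was found in 47 of 63 ribosomal protein genes in the sequence table (74.6%) and in 12 of 14 genes of the translation factor list (85.7%). It was found in 6 of 68 mitochondrial ribosomal protein genes (8.82%), 1 of 31 proteasome genes (3.23%), 0 of 38 immediate early genes, 695 of the 9434 tested genes in the table (7.37%) and 4.07% of all 35116 promoters. Among ribosomal protein genes, the median late change was 0.27 with the tract and 0.25 without. In other lists it was lower with the tract. It was 0.46 against 0.68 in the translation factor list, where 2 genes had no tract. Among mitochondrial ribosomal proteins it was 0.17 against 0.25, and among proteasome genes, where 1 had the tract, 0.497 against 0.505. Over all 9434 tested genes in the table, it was 0.23 for the 695 with the tract and 0.19 for the rest. These letters are a description of the annotated starts, which come from another build than the deposited values.

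Mitochondrial and metabolic genes had medians above the 0.15 of all genes. Genes of 50 TPM or more had a median of 0.30, with 58.2% higher. The respiratory chain lay near that median and mitochondrial ribosomal proteins below it. Of 80 subunits of the respiratory chain and ATP synthase, 52 (65%) rose and COX6B2 and ATP5D fell (median 0.31), and of 77 mitochondrial ribosomal proteins, 38 rose and MRPS18A and MRPS12 fell (median 0.23). After median-of-ratios scaling 24 (30%) and 21 (27.3%) were higher, close to the 27.9% of all genes. Of 16 glycolytic enzymes, 12 rose (median 0.42), and of 17 genes of the citric acid cycle, 11 rose and OGDH fell (median 0.50). ATP5B, the catalytic subunit of ATP synthase, was at 876 and 929 TPM at 4 h and 1131 and 1199.6 TPM at 6 h, against 511 and 435 TPM at 1 h and 649 and 629 TPM at 2 h (log2 change 0.90, SE 0.0823, limma adjusted p = 1.61e-07). PGK1, a glycolytic kinase, was at 329.6 and 338 TPM at 4 h and 405 and 406 TPM at 6 h, against 198 and 184 TPM at 1 h and 241 and 246 TPM at 2 h (log2 change 0.77, SE 0.0773, limma adjusted p = 4.77e-07). DLD, a subunit shared by the pyruvate and oxoglutarate dehydrogenases, was at 53.5 and 51.7 TPM at 4 h and 61.3 and 56.8 TPM at 6 h, against 20.0 and 15.6 TPM at 1 h and 26.8 and 25.5 TPM at 2 h (log2 change 1.33, SE 0.102, limma adjusted p = 2.17e-08). All 3 had their late libraries above the early ones. Of 29 genes of sterol and fatty acid synthesis, 19 rose and 2 fell (median 0.40). No mitochondrially encoded gene was in the table.

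Some gene groups held single members that fell steeply. Of 58 genes of RNA polymerase II, Mediator and TFIID, 29 rose and 9 fell (median 0.23). MED26, a Mediator subunit that recruits elongation factors, was at 35.4 and 38.5 TPM at 4 h and 12.5 and 10.4 TPM at 6 h, against 121 and 127 TPM at 1 h and 94.0 and 99.3 TPM at 2 h. Its late libraries were below the early ones throughout (log2 change -2.35, SE 0.0874, limma adjusted p = 8.88e-12), and MED9, MED7 and MED18 changed by -1.92, -1.68 and -1.04. Of 37 aminoacyl-tRNA synthetases, 26 rose and 3 fell (median 0.51). PARS2, the mitochondrial prolyl-tRNA synthetase, was at 3.89 and 4.17 TPM at 4 h and 2.68 and 1.72 TPM at 6 h, against 20.5 and 19.9 TPM at 1 h and 13.0 and 15.8 TPM at 2 h (log2 change -2.17, SE 0.102, limma adjusted p = 8.79e-11). MARS2, for methionine, changed by -1.55, while EARS2, also mitochondrial, changed by 1.00 and the cytosolic TARS by 0.82. Of 47 RAB GTPases, 27 rose and 9 fell (median 0.33), with -2.21 for RAB26, -1.98 for RAB20 and 0.93 for RAB18, which acts at lipid droplets. Of 188 solute carriers, 72 (38.3%) were higher and 31 (16.5%) lower, close to the 36.3 and 18.3% of all genes (median 0.17, against 0.15). SLC38A1 and SLC38A2, related carriers of neutral amino acids, changed by 0.83 and -1.04.

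Cytoskeleton, matrix and chromatin genes also lay on the rising side. Of 36 actin and tubulin cytoskeleton genes, 31 rose and none fell (median 0.37), including FLNA (0.84) and TLN1 (0.92), which link actin to membranes and integrins. Of 24 matrix genes, 15 rose and none fell (median 0.41), with 1.28 for the collagen lysyl hydroxylase PLOD2 and 0.86 for COL12A1. Of 53 histone-modifying enzymes, 34 rose and KDM2A and KAT6B fell (median 0.43), with 1.10 for the demethylase KDM1A and 0.91 for the methyltransferase SETDB1.

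Of 43 genes of deadenylation and decapping, 27 (62.8%) rose, against 36.3% of all genes (median 0.29). Another 7 (16.3%) fell, a share near the 18.3% of all genes. The 7 were the tail-shortening adaptors BTG2, TOB2, TOB1 and BTG1 and the AU-rich element binding proteins ZFP36, ZFP36L1 and ZFP36L2. ZFP36, or tristetraprolin, was at 13.6 and 13.3 TPM at 4 h and 6.12 and 6.77 TPM at 6 h, against 58.1 and 51.2 TPM at 1 h and 28.0 and 32.6 TPM at 2 h (log2 change -2.01, SE 0.0863, limma adjusted p = 3.02e-11). BTG2 was at 5.77 and 5.48 TPM at 4 h and 2.21 and 2.23 TPM at 6 h, against 29.8 and 28.0 TPM at 1 h and 15.9 and 18.7 TPM at 2 h (log2 change -2.34, SE 0.156, limma adjusted p = 4.35e-09). ZFP36L1, ZFP36L2, TOB1 and BTG1 changed by -1.13, -0.83, -0.82 and -0.79, and TOB2 by -0.86. DDX6, the helicase that links deadenylation to decapping, rose and was at 119 and 122 TPM at 4 h and 126 and 126 TPM at 6 h, against 53.7 and 51.7 TPM at 1 h and 69.5 and 72.3 TPM at 2 h. It had no overlap between late and early libraries (log2 change 1.00, SE 0.0757, limma adjusted p = 1.93e-08). Of 30 genes of nonsense-mediated decay and the exosome, 18 rose and 2 fell (median 0.36). SMG8, a regulator of the kinase of nonsense-mediated decay, changed by -1.19.

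**Figure D4:**
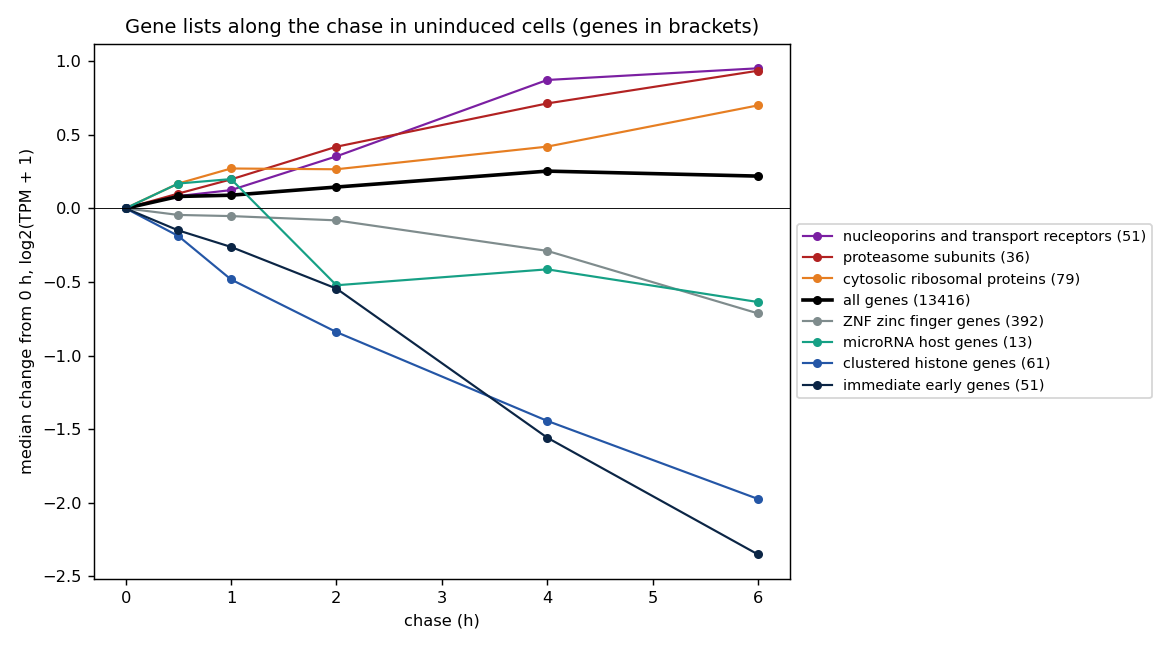
Median change from 0 h (log2, vertical axis) of gene lists and of all genes in uninduced cells over the chase (hours, horizontal axis), with the number of genes in brackets. Immediate early genes were at -2.35 and histone genes at -1.97 by 6 h, while proteasome genes were at 0.93 and nucleoporins at 0.95.

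Noncoding RNAs fell more often than they rose. Of the 1693 genes without a protein-coding transcript, 34.3% were lower and 3.19% higher, with a median of -0.35. By the rule above, the 5 largest falls were in SNORD72, MIRLET7DHG, MIR641, SNORD12C and MIR3190. MIRLET7DHG, a host of let-7 microRNAs, was at 0.46 and 0.91 TPM at 4 h and 0 and 0.38 TPM at 6 h, against 36.5 and 30.0 TPM at 1 h and 12.2 and 12.3 TPM at 2 h (log2 change -3.92, SE 0.248, limma adjusted p = 2.29e-09). It was near 0 in the late libraries. SNORD72, a box C/D small nucleolar RNA, was listed at 0 in all 4 late libraries, against 22.3 and 32.6 TPM at 1 h and 17.7 and 11.2 TPM at 2 h. SNORD12C was not called without any 1 of the 8 libraries other than 6 h replicate 1 (limma adjusted p = 0.0517 to 0.133), nor MIR3190 without 6 h replicate 1 or replicate 2 at 1, 2, 4 or 6 h (limma adjusted p = 0.0503 to 0.121). Of 13 microRNA host genes, 7 (53.8%) fell and none rose (median -0.55). MIR17HG, the host of the miR-17 cluster, was at 2.21 and 0.93 TPM at 4 h and 1.01 and 0.37 TPM at 6 h, against 31.2 and 21.3 TPM at 1 h and 5.08 and 7.10 TPM at 2 h (log2 change -2.76, SE 0.241, limma adjusted p = 9.77e-08). Of 316 antisense RNAs, 132 (41.8%) fell and 6 rose (median -0.40), and of 169 LINC genes, 61 (36.1%) fell and 3 rose (median -0.29). Of 176 small nucleolar RNAs, 38 (21.6%) fell, a share near the 18.3% of all genes. Only 5 of them (2.84%) rose (median -0.41), against 36.3% of all genes. That share was near the 3.19% of genes without a protein-coding transcript, as were those of antisense RNAs (1.9%) and LINC genes (1.78%). Antisense genes share reads with their partners where strand was not used in counting, which the sources used here do not give.

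Of 19 host genes of small nucleolar RNAs, 6 fell and 3 rose (median -0.13), and SNHG12 was at 62.5 and 54.9 TPM at 4 h and 41.2 and 42.6 TPM at 6 h, against 186 and 176 TPM at 1 h and 108 and 103 TPM at 2 h (log2 change -1.46, SE 0.0987, limma adjusted p = 4.9e-09). Among 9 long noncoding RNAs known from the nucleus, 3 fell and 2 rose, with a median of 0.17 that was -0.0046 after quantile normalization and -0.04 per transcript. NEAT1, the scaffold of paraspeckles, was at 54.9 and 56.5 TPM at 4 h and 31.3 and 35.0 TPM at 6 h, against 294 and 261 TPM at 1 h and 136 and 141 TPM at 2 h. It was lower in all 4 late libraries (log2 change -2.16, SE 0.117, limma adjusted p = 3.66e-10). The noncoding genes that rose most, by the same rule, were ANKRD36BP1 (1.32), ZFP91-CNTF (1.17), ALMS1-IT1 (0.97), SCARNA10 (0.95) and LOC220729 (0.81). ZFP91-CNTF is a readthrough and shares reads with a coding gene.

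RMRP, RPPH1 and MIR6723 held much of the TPM. Their summed share of TPM was 10.9 and 10.5% at 4 h and 7.78 and 8.45% at 6 h, against 17.4 and 19.4% at 1 h and 15.6 and 15.5% at 2 h. The late and early libraries did not overlap. RMRP was at 30363 and 33216 TPM at 4 h and 22975 and 31949 TPM at 6 h, against 78138 and 84414 TPM at 1 h and 50301 and 48533 TPM at 2 h. MIR6723 was at 59673 and 52147 TPM at 4 h and 30926 and 30110.1 TPM at 6 h, against 77146 and 87647 TPM at 1 h and 85057 and 85436 TPM at 2 h. Both lay lower late without overlap. RPPH1 was at 19115 and 20103 TPM at 4 h and 23855 and 22476 TPM at 6 h, against 19168 and 21781 TPM at 1 h and 20675 and 21449 TPM at 2 h, with late and early libraries that overlapped, so the lower sum came from the other two. The summed share averaged 9.42 ± 1.54% late and 17.0 ± 1.82% early (SD, n = 4 libraries each, 2 at each of 2 times). The difference was -7.57 percentage points (exact permutation test, two-sided p = 0.0286, the smallest that 4 against 4 libraries allow). The SD and the test take libraries of 2 times together, so they do not measure spread between replicates alone. RMRP and RPPH1 are the RNA parts of the RNase MRP and RNase P enzymes and are made by RNA polymerase III. Of the 8 kept RNAs of that polymerase, 1, RMRP, was called, with a change of -1.11 (limma adjusted p = 2.85e-06) that was -0.38 and not called after quantile normalization (limma adjusted p = 0.252). MIR6723 changed by -1.02 (limma adjusted p = 1.04e-05) and RPPH1 by 0.04 (limma adjusted p = 0.698).

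Within the late window, 1029 genes (7.67%) were lower at 6 h than at 4 h and 74 (0.552%) were higher. Of the 2460 genes that fell late, 844 were also lower at 6 h than at 4 h, with a median step of -0.43. Of the 4874 that rose late, 60 were higher and 21 lower at 6 h than at 4 h, with a median step of 0.11. The late change shares the 4 and 6 h libraries with this step, so the counts are a description. HPS6, part of a complex that builds lysosome-related organelles, was at 11.1 and 10.8 TPM at 6 h, against 47.1 and 52.1 TPM at 4 h (log2 change -2.08, SE 0.158, limma adjusted p = 6.96e-07). IER5 was at 7.15 and 6.94 TPM at 6 h, against 31.4 and 40.0 TPM at 4 h (log2 change -2.18, SE 0.238, limma adjusted p = 1.59e-05). KTI12 dropped as well, with a step of -2.10 (limma adjusted p = 3.32e-06), and these 3 calls held with any 1 library left out. Immediate early genes had 29 and histone genes 45 members lower at 6 h than at 4 h, and none higher. Ribosomal proteins had 16 higher and none lower.

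Risers at this step were few and less firm. JAG2, a Notch ligand, was at 21.9 and 24.2 TPM at 6 h, against 11.9 and 15.3 TPM at 4 h (log2 change 0.73, SE 0.201, limma adjusted p = 0.0319), and PIGP, of glycolipid anchor synthesis, at 8.84 and 6.77 TPM, against 4.45 and 3.39 TPM (log2 change 0.84, SE 0.226, limma adjusted p = 0.0273). JAG2 was not called without 4 h replicate 1, 6 h replicate 1 or 6 h replicate 2 (limma adjusted p = 0.309, 0.0862 and 0.225). PIGP was not called without any 1 of the 4 libraries (limma adjusted p = 0.0533 and 0.221 without 4 h replicates 1 and 2, 0.231 and 0.0555 without 6 h replicates 1 and 2), and per transcript its step was -0.34. SNORD47, SNORD99 and SCARNA13 were called higher and SNORD83A lower as well, each losing its call without at least 1 library. RPL21P28, a pseudogene whose values swung between replicates (1.24 and 0 TPM at 6 h, against 344 and 113 TPM at 4 h), is uncertain. The count of genes higher was 6 without 4 h replicate 1, 44 without 4 h replicate 2, 23 without 6 h replicate 1 and 7 without 6 h replicate 2. The count of genes lower was 646 without 4 h replicate 1, 681 without 4 h replicate 2 and 531 without 6 h replicate 2.

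Between the early times, 253 genes (1.89%) were higher and 73 (0.544%) lower at 2 h than at 1 h. Of the 4874 genes that rose late, 241 were already higher at 2 h than at 1 h and none was lower, with a median step of 0.20. Of the 2460 that fell late, 63 were lower and 2 higher, with a median step of -0.13. CASP2, a caspase of the DNA damage response, was at 81.6 and 80.1 TPM at 2 h, against 43.7 and 34.8 TPM at 1 h (log2 change 1.03, SE 0.176, limma adjusted p = 0.00715). SNRNP70, the U1-70K protein of the U1 snRNP, was at 175 and 152 TPM, against 99.8 and 76.1 TPM (log2 change 0.90, SE 0.203, limma adjusted p = 0.0295). POMK, a kinase acting on the glycan of dystroglycan, was at 141 and 152 TPM, against 80.7 and 76.4 TPM (log2 change 0.89, SE 0.179, limma adjusted p = 0.0168). These and SHCBP1 (0.87) were higher in both 2 h libraries, as was the small Cajal body RNA SCARNA10 (1.13). In the other direction, EGR1 was at 31.6 and 26.5 TPM at 2 h, against 133 and 81.8 TPM at 1 h (log2 change -1.82, SE 0.257, limma adjusted p = 0.00318), and MIR17HG, SNORD99, SNORA60 and MIR6516 were called lower too.

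With 2 libraries at each time, these steps hung on single libraries. The count of genes higher at 2 h was 43 without 1 h replicate 1, 5 without 1 h replicate 2, 2 without 2 h replicate 1, 9 without 2 h replicate 2, and 166 and 167 without 6 h replicates 1 and 2, which enter through the spread. The count lower was 14 without 1 h replicate 1, 7 without 1 h replicate 2, 2 without 2 h replicate 1 and 9 without 2 h replicate 2. CASP2 was not called without 1 h replicate 2, 2 h replicate 1 or 2 h replicate 2 (limma adjusted p = 0.122, 0.0744 and 0.0786), and EGR1 not without 2 h replicate 1 or 2 (limma adjusted p = 0.0501 and 0.0503). SNRNP70 and POMK were not called without any 1 of the 4 libraries, with limma adjusted p of 0.0612 to 0.309 for SNRNP70 and 0.0768 to 0.161 for POMK. SHCBP1 was not called without 1 h replicate 2 or 2 h replicate 1 (limma adjusted p = 0.0634 and 0.0521). SCARNA10, MIR17HG, SNORD99, SNORA60 and MIR6516 also lost their calls without at least 1 library.

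The slope of the late window was then set against that of the early chase, as the log2 change per hour from 1 and 2 h to 4 and 6 h minus that from 0 and 0.5 h to 1 and 2 h, each over the gap between the mean times. The libraries at 1 and 2 h enter both slopes, with opposite signs. In 533 genes (3.97%) the late slope was the lower one and in 60 (0.447%) the higher one. TRIB1 had the largest negative difference of the genes named, having been at 88.0 and 107 TPM at 0 h and 129.6 and 127 TPM at 0.5 h, below its 1 h level. Its early change was 0.34 and the difference of slopes -1.39 per hour (SE 0.131, limma adjusted p = 0.000112). TXNIP, an arrestin-like inhibitor of thioredoxin and of glucose uptake, was at 18.3 and 14.2 TPM at 4 h and 8.69 and 6.17 TPM at 6 h, against 57.1 and 51.2 TPM at 1 h and 51.5 and 46.0 TPM at 2 h. It had been at 25.8 and 21.4 TPM at 0 h and 39.1 and 32.6 TPM at 0.5 h, so it peaked at 1 and 2 h. Its early change was 0.80, its late change -2.13 and the difference of slopes -1.25 per hour (SE 0.139, limma adjusted p = 0.00025).

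SMAD7, the inhibitory SMAD of TGF-beta signalling, was at 32.4 and 35.5 TPM at 4 h and 16.1 and 11.2 TPM at 6 h, against 110.3 and 103 TPM at 1 h and 107 and 112 TPM at 2 h. At 0 h it had been at 57.6 and 54.0 TPM and at 0.5 h at 74.99 and 83.2 TPM, and the difference of slopes was -1.20 per hour (SE 0.129, limma adjusted p = 0.000248). C2orf69 was at 21.5 and 23.3 TPM at 4 h and 7.91 and 5.06 TPM at 6 h, against 30.9 and 28.4 TPM at 1 h and 34.0 and 40.3 TPM at 2 h. It was highest at 2 h, having been at 16.8 and 19.4 TPM at 0 h and 22.7 and 22.8 TPM at 0.5 h (difference -0.94 per hour, limma adjusted p = 0.000548). PPP1R3C and PPP1R3D, both glycogen-targeting subunits of protein phosphatase 1, had differences of -0.99 and -0.93, MYLIP of -0.98 and MIRLET7DHG of -1.11 per hour. MIRLET7DHG was not called without 1 h replicate 1, 2 h replicate 1, 0.5 h replicate 2 or 2 h replicate 2 (limma adjusted p = 0.0829, 0.0505, 0.0524 and 0.0721), nor PPP1R3D without 2 h replicate 2 (limma adjusted p = 0.0555). By list, the lower slope late was called in 29 of 392 ZNF genes, 14 of 51 immediate early genes, 12 of 54 homeobox genes, 7 of 20 KLF and SP factors, 7 of 25 feedback genes of BMP, TGF-beta and Notch signalling and 7 of 38 SR proteins and hnRNPs, against 3.97% of all genes. The higher slope late was called in 9 of 392 ZNF, 2 of 51 immediate early and 7 of 61 histone genes, against 0.447% of all genes.

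A less negative or more positive late slope was led by SNORD83A, PILRB (0.99), ZNF224 (0.74), ZNF107 (0.56), RAB43 (0.55), SCARNA10 (0.53), ZNF337 (0.52) and TMEM165 (0.48). TMEM165, a Golgi protein needed for glycosylation, had an early change of -0.26 and a late one of 0.95 (limma adjusted p of the difference = 0.00437). ZNF107 had early and late changes of -0.77 and -0.21. TMEM165 and ZNF107 kept their calls with any 1 library left out, and the other 6 did not. ZNF107 was not called per transcript (difference 0.59 per hour, limma adjusted p = 0.66). The small RNAs SNORD83A and SCARNA10 lost theirs with several libraries left out. RAB43 lost its call without replicate 1 at 0, 0.5, 1 or 2 h (limma adjusted p = 0.072, 0.0706, 0.12 and 0.137), and ZNF337 without replicate 1 at 0 or 2 h or replicate 2 at 0.5, 1 or 2 h (limma adjusted p = 0.0616, 0.101, 0.0631, 0.086 and 0.0551). PILRB lost it without 1 h replicate 1 or 2 h replicate 2 (limma adjusted p = 0.0507 and 0.0721) and ZNF224 without 1 h replicate 2 or 2 h replicate 2 (limma adjusted p = 0.0636 and 0.0908). The count of genes with the lower slope was 322 and 324 without 0.5 h replicates 1 and 2, 198 and 307 without 1 h replicates 1 and 2, and 326 and 164 without 2 h replicates 1 and 2. That with the higher slope was 26 without 0 h replicate 1, 27 and 28 without 0.5 h replicates 1 and 2, 22 and 23 without 1 h replicates 1 and 2, and 22 and 17 without 2 h replicates 1 and 2.

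The late change was finally compared between the arms, which asks whether expression of TOB2 S254D altered it. The test was the late change in induced cells minus that in uninduced cells, and induced cells also lacked doxycycline. The difference was positive for TOB2 alone (0.00745% of genes) and negative in 295 genes (2.2%), with 1682 genes at an unadjusted p under 0.05. In TOB2 it was 0.78 (SE 0.163, limma adjusted p = 0.0203), from the levels given above. ID3, an inhibitor of DNA binding by basic helix-loop-helix factors, was at 195 and 212 TPM at 4 h and 65.4 and 69.3 TPM at 6 h, against 1382 and 1370.0 TPM at 1 h and 745 and 834 TPM at 2 h in induced cells. In uninduced cells, ID3 was at 502 and 484 TPM at 4 h and 239.6 and 193 TPM at 6 h, against 1277 and 1235 TPM at 1 h and 1047 and 1013 TPM at 2 h. It fell in both arms and more steeply in induced cells, with changes of -3.14 and -1.80 and a difference of -1.34 (SE 0.107, limma adjusted p = 1.04e-05). ID3 was called in each of the 31 alternatives.

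CITED4, a relative of CITED2, changed by -2.85 in induced and -1.75 in uninduced cells, and NXT1, a partner of the mRNA export receptor NXF1, by -2.09 and -1.17. Their differences were -1.10 (SE 0.214, limma adjusted p = 0.0138) and -0.91 (SE 0.117, limma adjusted p = 0.00113). AAED1 was at 30.7 and 41.8 TPM at 4 h and 24.5 and 31.6 TPM at 6 h, against 40.9 and 49.4 TPM at 1 h and 50.7 and 53.9 TPM at 2 h in induced cells. In uninduced cells, AAED1 was at 74.2 and 60.2 TPM at 4 h and 55.0 and 61.7 TPM at 6 h, against 39.6 and 48.0 TPM at 1 h and 50.2 and 58.3 TPM at 2 h, with 1 early library inside the late range. Its change was -0.60 in induced cells and 0.35 in uninduced cells, with a difference of -0.96 (SE 0.166, limma adjusted p = 0.00805). The rise of AAED1 in uninduced cells was not called without 1 h replicate 1, 2 h replicate 1, 4 h replicate 1 or 6 h replicate 2 (limma adjusted p = 0.0789, 0.0727, 0.085 and 0.0636), nor after any other scaling. By list, the difference was negative and called in 7 of 54 homeobox genes, 5 of 20 KLF and SP factors, 5 of 25 feedback genes of BMP, TGF-beta and Notch signalling and 6 of 51 immediate early genes, against 2.2% of all genes. It was called in 10 of 392 ZNF genes and 6 of 316 antisense RNAs, shares near that of all genes.

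The count of these calls depended on scaling, and 17 genes were lower after median-of-ratios scaling. The differences of CITED4, C16orf91, AAED1, SOWAHC and NXT1 were then -1.005, -0.89, -0.86, -0.86 and -0.82, against -1.10, -0.98, -0.96, -0.95 and -0.91 with TPM as deposited, and were not called (limma adjusted p = 0.134, 0.0985, 0.102, 0.103 and 0.0683). CITED4 was not called without uninduced 2 h replicate 1 either (limma adjusted p = 0.0521). The count of genes lower was 146, 91, 125 and 117 without uninduced replicate 1 at 1, 2, 4 and 6 h, and 137, 177 and 189 without uninduced replicate 2 at 1, 2 and 4 h. It was 180, 119 and 148 without induced replicate 1 at 1, 4 and 6 h, and 114 and 188 without induced replicate 2 at 2 and 6 h. TOB2 was not called without uninduced replicate 1 at 1, 2 or 4 h (limma adjusted p = 0.0586, 0.0712 and 0.0557), without induced 6 h replicate 1 (limma adjusted p = 0.0625) or without induced 2 h replicate 2 (limma adjusted p = 0.0645).

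**Figure D5:**
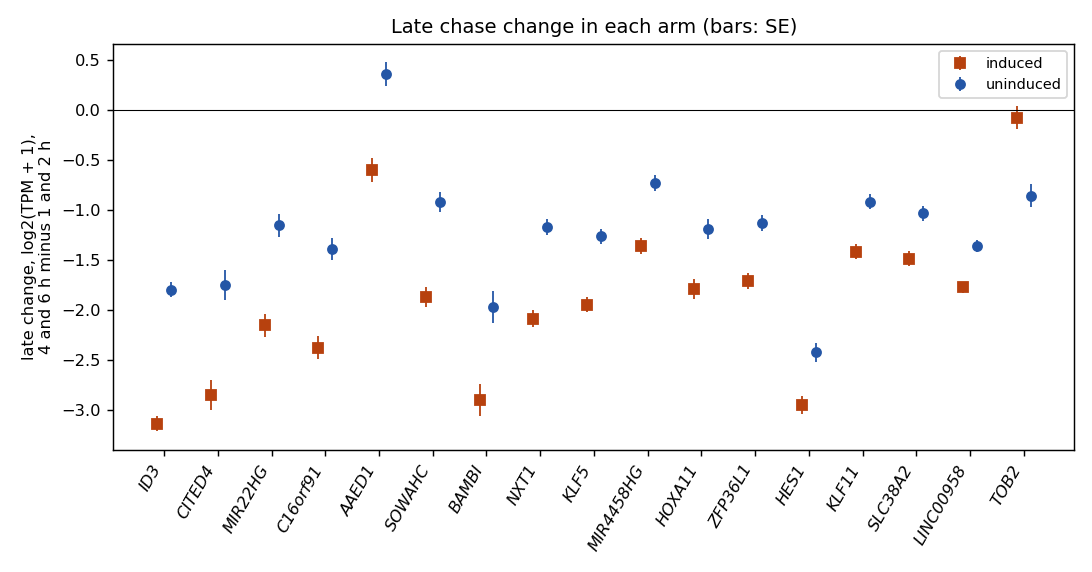
Late change (4 and 6 h minus 1 and 2 h, log2, with standard errors) of 17 genes in induced cells (squares, left of each pair) and uninduced cells (circles, right of each pair). ID3 fell further in induced cells (-3.14) than in uninduced cells (-1.80), and TOB2 changed by -0.08 in induced cells and by -0.86 in uninduced cells.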

How the data were processed

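The values are TPM per RefSeq transcript with 2 decimals, as deposited by the authors; RSEM 1.3.0, Bowtie2, Trim Galore and the hg19 build appear in the submitters' processing notes, with no role or order given. TPM fix each library's total, so depth is unknown and no counting interval was given. TPM were summed per symbol over 48009 transcripts (3 had no symbol); 48 tested genes share identical values with another gene, and 26 symbols had been turned into dates. Genes averaging at least 1 TPM were fitted in limma 3.58.1 (R 4.3.3) on log2(TPM + 1), with a mean for each of the 12 groups, all 24 libraries, 12 residual degrees of freedom and a variance trend. Tests were two-sided, with Benjamini-Hochberg adjustment over 13416 genes and a threshold of 0.05. The fit was tested on simulated data. Text genes were TOB2, then the largest called changes with the same sign in each replicate and a mean of at least 5 TPM (15 coding and 5 noncoding each way for the late change, 8 each way for slopes and arms, 5 for single steps), and up to 4 members of each list with the smallest p; other members given were chosen after their values were seen. Members and lists were chosen with earlier results of these data known. Alternatives changed the pseudocount, filter, scaling, transcript set, model and libraries used. Sequences are from RefSeq on GRCh38.p14. Some genes that the rules name are not reported here.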

Additional observations from a re-analysis of the deposited data

Results flagged for a closer look

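The late change differed between induced and uninduced cells in 17 of the genes named, by the test of the difference itself (induced minus uninduced, log2, limma adjusted over all genes). It was 0.78 for TOB2. It was -1.34 for ID3, -1.10 for CITED4, -0.98 for C16orf91, -0.96 for AAED1, -0.95 for SOWAHC, -0.93 for BAMBI, -0.91 for NXT1, -0.68 for KLF5, -0.60 for HOXA11, -0.58 for ZFP36L1, -0.53 for HES1, -0.50 for KLF11 and -0.45 for SLC38A2. Among noncoding genes it was -0.9998 for MIR22HG, -0.63 for MIR4458HG and -0.42 for LINC00958. BAMBI, a pseudoreceptor of TGF-beta signalling, was called at a limma adjusted p of 0.0469 and HES1 at 0.0473. BAMBI was not called in 24 of 31 alternatives. TOB2, CITED4, MIR22HG, C16orf91, AAED1, SOWAHC and NXT1 each lost their call in at least 1, and ID3 in none. The differences of KLF5, HOXA11, ZFP36L1, HES1, KLF11, SLC38A2, MIR4458HG and LINC00958 were not examined under the alternatives. AAED1 changed by -0.60 in induced cells and by 0.35 in uninduced cells. The absence of doxycycline and the expression of TOB2 S254D cannot be told apart in these differences.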

How the results depend on the processing

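The count of late changes (4874 higher, 2460 lower) stayed within 1.5 times under each alternative run except 4 h against 2 h alone (1767 and 650); with 1 library left out it was 4150 to 4866 higher and 2023 to 2462 lower. Of the single-gene results, 6640 kept direction and call, 275 lost the call, 30 gained it and 3 turned round: CLK1 late per transcript (0.12), TIMP1 late after quantile normalization (-0.0114) and PIGP at 6 h against 4 h per transcript (-0.34). The cause was not tested.

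Genes higher at 6 h than at 4 h numbered 43 without a filter, 204 after quantile normalization, 269 after median-of-ratios scaling, 44 per transcript, 129 with uninduced libraries alone and 44 without a variance trend, and 6 to 73 with 1 library left out; genes lower numbered 644 per transcript and 531 to 989 with 1 library left out. Genes higher at 2 h than at 1 h numbered 415 without RMRP, MIR6723 and RPPH1, 401 with coding transcripts, 100 per transcript, 545 with uninduced libraries alone, 122 without a trend and 2 to 192 with 1 library left out. Genes lower numbered 176 after quantile normalization, 134 after median-of-ratios scaling, 148 without RMRP, MIR6723 and RPPH1, 118 with coding transcripts, 42 per transcript, 116 with uninduced libraries alone and 2 to 71 with 1 library left out.

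The late slope was the higher one in 292 genes after quantile normalization, 269 after median-of-ratios scaling, 155 without RMRP, MIR6723 and RPPH1, 159 with coding transcripts, 30 per transcript, 140 with uninduced libraries alone and 17 to 53 with 1 library left out. It was the lower one in 300 per transcript, 870 with uninduced libraries alone and 164 to 514 with 1 library left out. Between the arms, the difference was positive in 2 genes with a pseudocount of 0.1 or 5 TPM or a minimum of 5 TPM, 6 without a filter or after quantile normalization, 3 without RMRP, MIR6723 and RPPH1, 4 with coding transcripts, 5 per transcript and 0 to 4 with 1 library left out. It was negative in 188 after quantile normalization, 17 after median-of-ratios scaling, 546 without RMRP, MIR6723 and RPPH1, 574 with coding transcripts, 87 per transcript, 174 without a trend and 91 to 354 with 1 library left out.

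The titles number the libraries of every group Rep1 and Rep2, without saying whether a number links libraries across groups. Deviations of same-numbered uninduced libraries from their group means correlated at r = 0.045 to 0.174 across genes. The correlation was positive in every pair of groups from 1 to 6 h, though not above 0.1 in each. The main fit held no replicate term. With the replicate block, 5417 genes were higher and 2737 lower late, 188 higher at 6 h than at 4 h, 799 higher and 174 lower at 2 h than at 1 h, 161 and 935 had the higher and lower late slope, and 12 and 557 differed upward and downward between the arms. The summed share of RMRP, MIR6723 and RPPH1 differed by -8.07 to -6.77 percentage points with 1 library left out, where the smallest p possible is 0.0571. Depth is unknown, so low genes carry an error that cannot be given as counts.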
